A study of Rattus norvegicus with 6 samples.

Results

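The 8 genes described here make or support the making of new fatty acids in the liver: Acly, Acaca, Acacb, Fasn, Elovl6, Scd1, Me1 and Thrsp. They were taken by name from the 32930 gene rows of the deposited table, each had 1 row, and all 8 were among the 18455 rows tested. Liver RNA was sequenced from 3 animals fed a high-fat diet (the HFD group) and from 3 others on that diet that were given HTG (the HTG group), the Huazhuo Tiaozhi granule, a herbal preparation. Per the labels the intervention ran for 12 weeks and the HFD group received the vehicle, 0.5% CMC-Na. For its rats, the study describes 12 weeks of diet, with HTG given in 0.5% CMC-Na over the last 8 weeks. The labels name rats and nonalcoholic fatty liver, and their treatment field spells the preparation HCG. The study's sequencing methods name dyslipidaemic C57BL/6 J mice, and each row has a mouse Ensembl identifier, for which reason values are read as those of mouse genes. No strain, sex or age is given in the labels, and no group on a normal diet is among the 6 libraries, so both groups share the high-fat diet.

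De novo lipogenesis turns surplus carbohydrate into fat. Citrate exported from mitochondria is split to acetyl-CoA by ATP citrate lyase (Acly), acetyl-CoA carboxylases (Acaca, Acacb) make malonyl-CoA, and fatty acid synthase (Fasn) builds palmitate from it with NADPH that malic enzyme (Me1) helps to supply. Palmitate is then lengthened by Elovl6 and desaturated by Scd1. Thrsp, also called Spot 14, has no catalytic activity of its own known with certainty but accompanies lipogenesis in liver and fat. In liver these genes are known targets of SREBP-1c and ChREBP, which respond to insulin and to glucose, and they are low in fasting and high after refeeding.

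The deposited estimated counts summed to between 50648778 and 90563477 per library, and low counts favoured multiples of 4. Values below are CPM, counts scaled to edgeR's normalised library totals, unless FPKM, which also divides by transcript length, is named. If 1 fragment is taken as 4 counts, a gene with no fragment could still be as high as 0.123 to 0.256 CPM by counting error alone, and the 8 genes never had fewer than 789 counts, so counting error is small beside the spread between animals. Hepatocyte markers were abundant in every library, with Alb between 53506 and 74503 CPM. Of the adipocyte markers, Adipoq was at 0 in all 6 libraries, Plin1, Retn and Cfd never exceeded 28 counts, Fabp4 lay between 2.13 and 7.44 CPM, and Lep was not among the rows (Pck1, on the same list, is also a hepatocyte gene). In bulk liver, fewer cells of a type and less RNA per cell cannot be told apart. Libraries are taken as separate animals, and p-values judge the difference between the groups against the spread between libraries.

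HFD library 3 set the pattern. All 8 genes were highest in this library, against 19.1% of all genes tested, and 7 of the 8 were at least 2-fold above every other library, against 0.688% of all genes tested. At least 4-fold above every other library were 5 of the 8, against 0.0759% of all genes tested. Together the 8 genes took 2.17% of the counts in HFD library 3, but 0.318% in HFD library 1 and 0.101% in HFD library 2. In HTG libraries 1, 2 and 3 the share was 0.126%, 0.189% and 0.394%. The share of HFD library 2 was the lowest of the 6, so the HFD group held both extremes of this sum, most of which was Scd1. Without Scd1 the share was lowest in HTG library 1 (0.0309%), followed by HFD library 2 (0.0338%). Over the whole table HFD library 3 was not an extreme library: 127 genes were at least 2-fold above every other library there, and between 19 and 170 in the other 5.

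**Figure D1:**
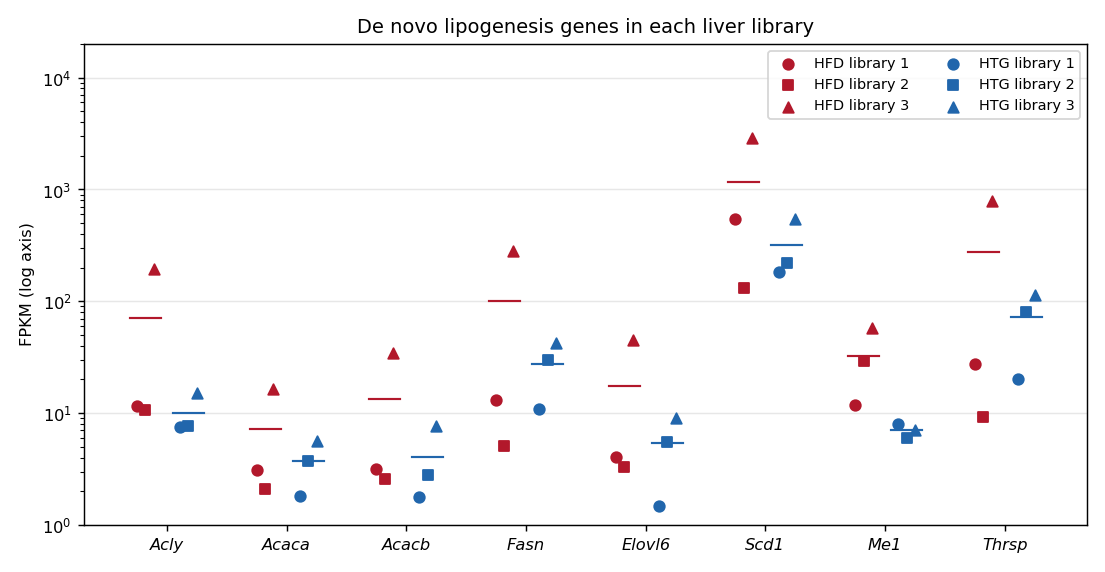
FPKM of the 8 genes on a log axis in the 3 HFD libraries (red) and the 3 HTG libraries (blue), with symbols for library numbers and short lines for group means. HFD library 3 (red triangle) is the highest point of every gene, at 2862 FPKM for Scd1, and in 7 genes the other HFD libraries lie within or below the range of the HTG libraries.

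With all 6 libraries, the fitted value of each of the 8 genes was lower with HTG, against 48.4% of all genes tested, with log2 fold changes from -2.72 to -0.86. None had an adjusted p under 0.05 in edgeR's quasi-likelihood test (adjusted p from 0.0616 to 0.508), where 0.0108% of all genes tested did. At an unadjusted p under 0.05, 2 of 8 were lower, Acly and Me1, against 12.4% of all genes tested, and 0 of 8 were higher, against 12.3% (24.7% in either direction). The groups did not overlap in 1 of 8, Me1, against 15.5% of genes tested that were lower in all HTG libraries and 16.5% that were higher. DESeq2 called 1 of the 8 lower at an adjusted p under 0.05, again Me1, against 7.55% of the genes it tested (6.29% were higher), and gave no p for Acly and Acacb. Without HFD library 3, 6 of the 8 had a higher fitted value in the HTG group and their median log2 fold change moved from -1.77 to 0.57, while the median of all genes tested went from 0.03 to 0.05. In that comparison Me1 was lower and Fasn and Thrsp were higher at an unadjusted p under 0.05, where 10.2% of genes were lower and 10.4% higher (20.5% in either direction), and 0 of 8 had an adjusted p under 0.05 in edgeR's quasi-likelihood test.

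**Figure D2:**
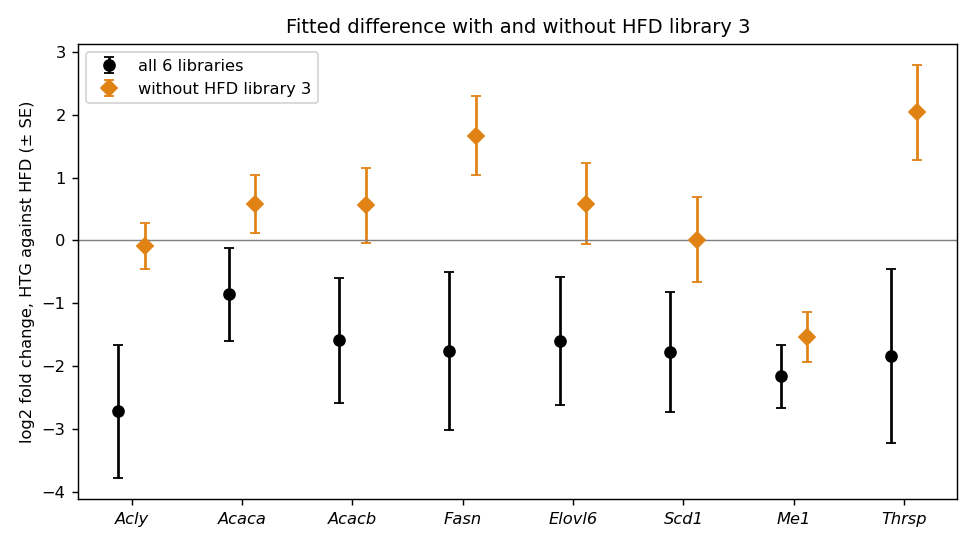
Fitted log2 fold change of HTG against HFD with its standard error (SE) for the 8 genes, over all 6 libraries (black) and without HFD library 3 (orange). All black points lie below 0, and of the orange points those of Me1 at -1.54 and Acly at -0.09 lie below 0.

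Acly (ENSMUSG00000020917, chromosome 11, 100367179 to 100418826, minus strand), which supplies cytosolic acetyl-CoA, had 60.9, 61.9 and 1023 CPM in HFD libraries 1, 2 and 3 and 42.2, 39.8 and 91.7 CPM in HTG libraries 1, 2 and 3. HFD library 3 was 11.2-fold above the next library, HTG library 3, and the other 5 libraries lay within 2.03-fold of each other in FPKM. By that excess over every other library Acly ranked 2 of the 18455 genes tested. Its log2 fold change came to -2.72 (standard error, SE, 1.06, unadjusted p = 0.0325, edgeR quasi-likelihood adjusted p = 0.162), and -0.09 (SE 0.37) without HFD library 3. The unadjusted p stayed under 0.05 in 8 of the 14 alternative fits that gave one, and was above it, among others, when HFD library 3 or either of HTG libraries 1 and 2 was left out and with limma on both FPKM scales (-1.59 and -1.53). Of the summed CPM of the HFD group, 89.3% came from library 3.

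The carboxylases make malonyl-CoA, Acaca (ENSMUSG00000020532, chromosome 11, 84020498 to 84202227, plus strand) for synthesis in the cytosol and Acacb (ENSMUSG00000042010, chromosome 5, 114284596 to 114388822, plus strand) at mitochondria, where it restrains fatty acid entry. Acaca had 52.8, 39.4 and 284 CPM in HFD libraries 1, 2 and 3 and 33.3, 62.9 and 112 CPM in the HTG libraries. Over all 6 libraries its log2 fold change was -0.86 (SE 0.74, edgeR quasi-likelihood adjusted p = 0.508), and 0.58 (SE 0.46) without HFD library 3. Acacb had 30.5, 27.5 and 332 CPM in the HFD libraries and 18.5, 26.4 and 84.3 CPM in the HTG libraries, so that HTG library 3 also stood above HFD libraries 1 and 2. Its log2 fold change came to -1.59 (SE 0.99, adjusted p = 0.357, same test), and 0.56 (SE 0.60) without HFD library 3. In FPKM the Acacb to Acaca ratio was 1.03, 1.24 and 2.07 in HFD libraries 1, 2 and 3, against 0.984, 0.745 and 1.34 with HTG. The mean log2 ratio differed by -0.47 between HTG and HFD, within the spread (exact two-sided permutation test, p = 0.4, where 0.1 is the smallest p that 3 against 3 allows).

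Fasn (ENSMUSG00000025153, chromosome 11, 120696672 to 120715373, minus strand), the multifunctional synthase, had 144, 62.2 and 3131 CPM in HFD libraries 1, 2 and 3 and 127, 325 and 534 CPM in the HTG libraries. HFD library 3 was 50.4-fold above HFD library 2, and 2 HTG libraries lay above both other HFD libraries. The fitted log2 fold change came to -1.76 (SE 1.26, edgeR quasi-likelihood adjusted p = 0.422). Without HFD library 3 it was 1.67 (SE 0.63, unadjusted p = 0.0316, adjusted p = 0.205, same test), so the direction rested on 1 library. Thrsp (ENSMUSG00000035686, chromosome 7, 97062145 to 97066937, minus strand) was the most variable of the 8. It had 60.4, 22.2 and 1749 CPM in the HFD libraries and 47.6, 174 and 289 CPM in the HTG libraries, with the lowest value again in HFD library 2. Its log2 fold change came to -1.84 (SE 1.38, adjusted p = 0.443, same test), and 2.04 (SE 0.76, unadjusted p = 0.0309, adjusted p = 0.204) without HFD library 3.

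Fasn and Thrsp kept step with each other. Thrsp was 2.10, 1.79 and 2.79 times Fasn in FPKM in HFD libraries 1, 2 and 3 and 1.87, 2.67 and 2.71 times in the HTG libraries, while Thrsp itself spanned 86.6-fold over the 6 libraries and Fasn 55.4-fold. Of the 28 pairs among the 8 genes, this pair had the narrowest ratio, spanning 1.56-fold, followed by Acacb and Elovl6 at 2.40-fold. The widest was Me1 to Thrsp at 51.7-fold. The pairs were ranked after the values were seen.

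Palmitate is lengthened to stearate by the elongase Elovl6 and stearate is desaturated to oleate by Scd1. Elovl6 (ENSMUSG00000041220, chromosome 3, 129326004 to 129428620, plus strand) had 26.1, 23.4 and 291 CPM in HFD libraries 1, 2 and 3 and 10.1, 34.8 and 67.3 CPM in the HTG libraries. HTG library 1 was the lowest of the 6 and HTG library 3 the second highest. Its log2 fold change came to -1.60 (SE 1.02, edgeR quasi-likelihood adjusted p = 0.369), and 0.59 (SE 0.65) without HFD library 3. Scd1 (ENSMUSG00000037071, chromosome 19, 44382894 to 44396148, minus strand) had 2634, 712 and 14092 CPM in the HFD libraries and 959, 1066 and 3056 CPM in the HTG libraries. In HFD library 3 this gene alone took 1.45% of all counts. The log2 fold change of Scd1 was -1.78 (SE 0.95, adjusted p = 0.289, same test), and 0.012 (SE 0.68) without HFD library 3, where the means were 1673 CPM in HFD libraries 1 and 2 and 1694 ± 1181 CPM (SD, n = 3) in the HTG group. Without HFD library 2, Scd1 was also lower at an unadjusted p under 0.05. The neighbouring paralogs can share reads with Scd1. Scd3 had 45 counts in HFD library 3 and at most 4 elsewhere, Scd4 had at most 18 counts, and Scd2 had between 492 and 2224 counts, against at least 47466 for Scd1.

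Me1 behaved differently from the other 7 genes. Me1 (ENSMUSG00000032418, chromosome 9, 86463424 to 86578006, minus strand), the cytosolic malic enzyme, had 45.0, 123 and 222 CPM in HFD libraries 1, 2 and 3 and 33.2, 23.0 and 31.1 CPM in the HTG libraries. Every HTG library lay below every HFD library, and the HTG libraries were within 1.44-fold of each other. HFD library 2, the lowest HFD library for 6 of the 8 genes, was here the second highest of all 6. The means were 130 ± 88.7 CPM (SD, n = 3) with HFD alone against 29.1 ± 5.36 CPM (SD, n = 3) with HTG. The log2 fold change came to -2.16 (SE 0.50, unadjusted p = 0.00225, edgeR quasi-likelihood adjusted p = 0.0616), and the exact two-sided permutation test gave its smallest possible p of 0.1. Without HFD library 3 it was -1.54 (SE 0.40, unadjusted p = 0.00583, adjusted p = 0.146, edgeR). DESeq2 gave an adjusted p of 9.5e-05. Over 15 alternative fits the log2 fold change lay between -2.57 and -1.54 with an unadjusted p under 0.05 in all 15, and the adjusted p ran from 9.5e-05 to 0.213 and was under 0.05 in 3.

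Spread within both groups was large for most of these genes. The SD of log2 CPM over the 3 HFD libraries was 3.30 for Thrsp, 2.98 for Fasn and 1.16 for Me1, and all 8 genes lay at or above the 96.2 percentile of this SD over all genes tested. In the HTG group 7 of the 8 lay between the 83.4 percentile, Acly, and the 98.1 percentile, Elovl6, with SDs of 0.67 to 1.38, and Me1 was at the 45.7 percentile with an SD of 0.28. HTG library 3 was the highest HTG library for 7 of the 8 genes and HTG library 1 the lowest for 6. By the excess of HFD library 3 over every other library, Thrsp, Fasn, Scd1, Elovl6 and Acacb ranked 4, 5, 9, 12 and 15 of the 18455 genes tested, Acaca ranked 53 and Me1 ranked 212.

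**Figure D3:**
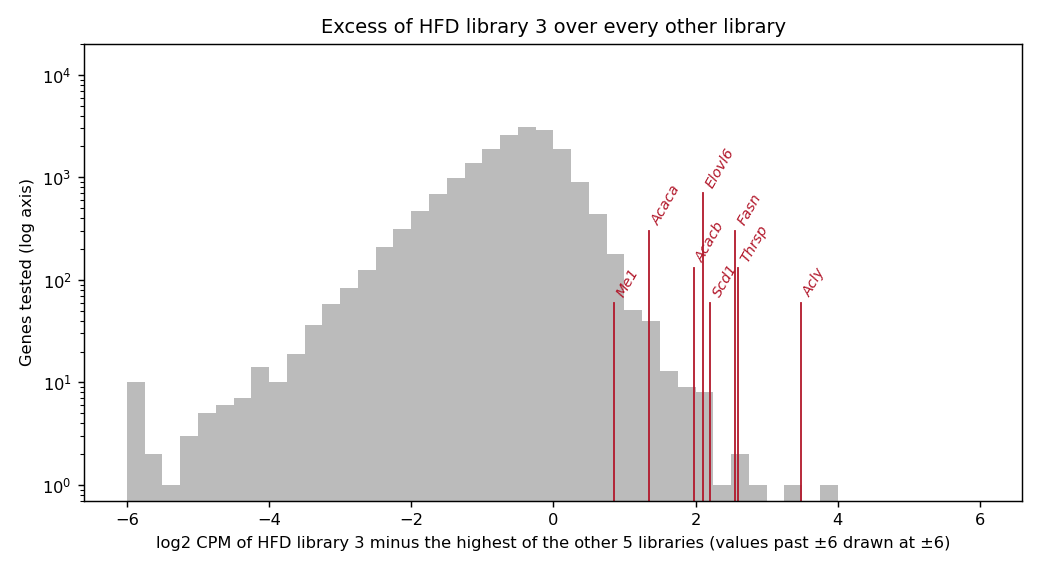
Number of genes tested (log axis) by the log2 difference between HFD library 3 and the highest of the other 5 libraries, with red lines at the 8 genes. The 8 genes lie at the right end, from Me1, 1.80-fold above the next library, to Acly, 11.2-fold above it.

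By mean FPKM the order in both groups was Scd1, Thrsp, Fasn, Acly, Me1, Elovl6, Acacb and Acaca, from 1178 ± 1473 to 7.23 ± 8.05 FPKM in the HFD group and from 316 ± 198 to 3.74 ± 1.93 FPKM in the HTG group (SD, n = 3). The HFD order was that of HFD library 3: without it, mean HFD levels were 336 FPKM for Scd1, 20.3 for Me1 and 18.4 for Thrsp, so that Me1 came second. Within libraries, Scd1 was first and Thrsp was above Fasn in all 6. Other places changed: Me1 and Acly stood above Thrsp in HFD library 2, Me1 was seventh in HTG library 3, and Acaca was above Acacb in HTG libraries 1 and 2 only. The ratio of Scd1 to Fasn was 40.9, 25.6 and 10.1 in HFD libraries 1, 2 and 3, against 16.9, 7.34 and 12.8 with HTG, a mean log2 difference of -0.91 (exact two-sided permutation test, p = 0.3). The ratio of Acly to Fasn differed by -1.43 on the log2 scale (p = 0.2) and that of Elovl6 to Scd1 by 0.06 (p = 0.8), both by the same exact test. With 4 ratios and a smallest possible p of 0.1, none could pass 0.05.

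Genes that regulate or surround the pathway were taken from 8 lists. Of the 14 regulators, 2 (against 12.3% of all genes tested) had an unadjusted p under 0.05 with a higher value and 3 (against 12.4%) with a lower one, with 0 at an adjusted p under 0.05 in edgeR's quasi-likelihood test, and their median log2 fold change came to -0.06. DESeq2 called 4 of the 14 at an adjusted p under 0.05. Mlxipl and Nr0b2 were higher, against 6.29% of the genes it tested, and Rxra and Insig2 were lower, against 7.55%. Mlxipl, which encodes ChREBP, had 325, 287 and 461 CPM in HFD libraries 1, 2 and 3 and 604, 1075 and 939 CPM in the HTG libraries, so it was higher in every HTG library. Its log2 fold change came to 1.29 (SE 0.29, edgeR quasi-likelihood adjusted p = 0.0613), and 1.51 without HFD library 3. Srebf1, which encodes SREBP-1, had 155, 87.3 and 393 CPM in the HFD libraries and 244, 597 and 261 CPM in the HTG libraries. It was thus highest in HTG library 2, not in HFD library 3, and its log2 fold change of 0.79 (SE 0.56, adjusted p = 0.417) became 1.60 (unadjusted p = 0.0121) without HFD library 3. Nr0b2, the corepressor SHP, was higher in every HTG library (0.92, SE 0.16, adjusted p = 0.055, edgeR).

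Lower at an unadjusted p under 0.05 were Rxra, the partner of LXR and PPAR receptors (-0.73), Insig2, which retains SREBP in the endoplasmic reticulum (-1.25), and Scap, which escorts SREBP from it (-0.66). Scap was no longer under 0.05 without HFD library 3 (unadjusted p = 0.0904, edgeR's quasi-likelihood test). Insig1, itself a target of SREBP, followed the lipogenic genes, with 161, 65.6 and 445 CPM in the HFD libraries and 116, 128 and 192 CPM in the HTG libraries. Mid1ip1, a relative of Thrsp, was highest in HFD library 3 at 126 CPM and nearly as high in HTG library 2 at 100.3 CPM, and lowest in HFD library 2 at 14.4 CPM. Nr1h3, which encodes LXR alpha, lay between 69.8 and 102 CPM in all 6.

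Of the 14 genes of citrate and NADPH supply and of sugar entry, 11 were highest in HFD library 3, and 4 were lower and 0 higher at an unadjusted p under 0.05, against 19.1%, 12.4% and 12.3% of all genes tested (median log2 fold change -0.63). The 4 were the mitochondrial citrate carrier Slc25a1 (-0.69), the citrate synthase Cs (-0.57), the malate dehydrogenase Mdh1 (-0.76) and the glucose transporter Slc2a2 (-0.96). Of these 4, Mdh1 was still lower at an unadjusted p under 0.05 without HFD library 3. Pklr, liver pyruvate kinase and a ChREBP target, had 138, 79.6 and 669 CPM in the HFD libraries and 48.2, 106 and 141 CPM in the HTG libraries. Acss2, which makes acetyl-CoA from acetate, had 102, 53.7 and 522 CPM and 46.5, 48.6 and 142 CPM.

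**Figure D4:**
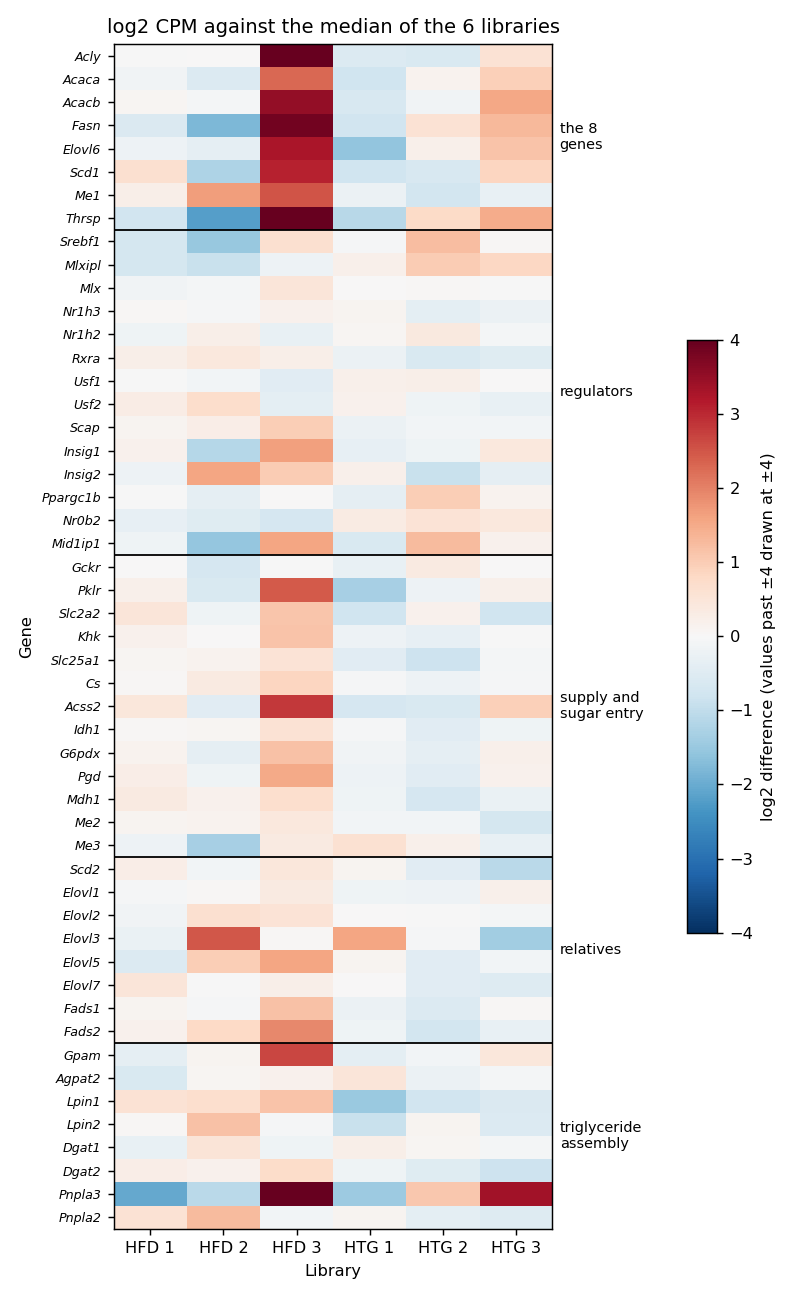
log2 CPM of each gene against its own median over the 6 libraries, for the 8 genes and for tested genes of 4 lists (columns are libraries, rows are genes). The column of HFD library 3 is red for all 8 genes and also for Pklr, Acss2, Gpam and Pnpla3, while Mlxipl and Srebf1 are highest in HTG library 2.

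Among the desaturase and elongase relatives, 8 of 10 were tested, all 8 with a lower fitted value (48.4% of all genes tested), and 1 (against 12.4%), the desaturase Fads2, was lower at an unadjusted p under 0.05 (-1.52, SE 0.43, adjusted p = 0.0849, edgeR's quasi-likelihood test). Fads2 had 392, 609 and 1318 CPM in the HFD libraries and 313, 212 and 283 CPM in the HTG libraries, without overlap, and stayed lower without HFD library 3 (-0.90, unadjusted p = 0.0155). Scd2, a paralog of Scd1, lay between 10.5 and 31.0 CPM. Of the 8 genes that assemble or release triglyceride, 3 were lower at an unadjusted p under 0.05 (12.4% of all genes tested), the phosphatidate phosphatase Lpin1 (-1.73), the acyltransferase Dgat2 (-0.88) and the lipase Pnpla2 (-0.91). Gpam, the first acyltransferase of glycerolipid synthesis, had 102, 140 and 831 CPM in the HFD libraries and 99.9, 120 and 176 CPM in the HTG libraries. Pnpla3, a lipogenic lipase gene, was counted 8, 22 and 1626 times in HFD libraries 1, 2 and 3, the first of these under the limit of 12 counts for an empty gene, and 18, 176 and 434 times in HTG libraries 1, 2 and 3, so HFD library 3 was followed by HTG library 3. Of the 85 tested genes of the lists, 8 were at least 2-fold above every other library in HFD library 3 (0.688% of all genes tested). These 8 were Acss2, Fads1, Fads2, Gpam, Insig1, Pgd, Pklr and Pnpla3.

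Of the 8 insulin signalling genes, 3 were highest in HFD library 3 (19.1% of all genes tested) and none was at least 2-fold above every other library there. Lower at an unadjusted p under 0.05 in edgeR's quasi-likelihood test were the kinases Akt1 (-0.75), Akt2 (-0.69), Pdpk1 (-0.89) and the transcription factor gene Foxo1 (-0.65), each without overlap between the groups (12.4% of all genes tested were lower at that p and 15.5% without overlap), and these 4 were also lower without HFD library 3. Of the 9 genes for AMPK, which inhibits the carboxylases, and malonyl-CoA removal, 1 was lower at an unadjusted p under 0.05, near the 12.4% of all genes tested, the catalytic subunit Prkaa2 (-0.95, SE 0.19, adjusted p = 0.0582, edgeR's quasi-likelihood test).

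Fasting-induced genes are given beside these results because lipogenic genes fall in fasting. HFD library 2 was the highest of the 6 libraries in 10 of the 11 such genes, against 21.4% of all genes tested. It had 1395 CPM of Cyp4a14, a PPAR alpha target, where the other libraries had between 3.93 and 398 CPM, and 25.7 CPM of Pdk4, where they had at most 6.15 CPM. In HFD library 3, 1 of the 11 was highest, and the median ratio of this library to the median of the other 5 was 0.992 over the list. All 11 were lower with HTG by fitted value (48.4% of all genes tested), and 3 of them (against 12.4%), Cpt1a (-1.19), Pdk4 (-2.61) and G6pc1 (listed as G6pc, -1.84), were lower at an unadjusted p under 0.05 (edgeR's quasi-likelihood test). Without HFD library 3, 5 of the 11 were lower at that p, against 10.2% of genes, though G6pc1 was not (unadjusted p = 0.0655, same test). The median log2 fold change of the list moved from -1.19 to -1.45 without that library. The part of feeding state in the values of the 8 genes was not tested.

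Among the 5 genes closest to the mean pattern of the 8 over the 6 libraries, by root mean square difference of centred log2 CPM, were Fignl1 (0.27), Acss2 (0.38), Uhrf1 (0.40) and Pklr (0.41). Fignl1 was near the limit of 12 counts for an empty gene, with 12 counts in HTG library 1 and 16 in HFD library 2. Among the 8 themselves this difference ran from 0.22 for Acacb to 0.89 for Thrsp and 1.16 for Me1.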

How the data were processed

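RNA sequencing of liver from 3 HFD and 3 HTG libraries was analysed, grouped by the sample titles. The authors deposited, per gene and library, an estimated count in whole numbers with no scaling across libraries, and an FPKM value, divided by transcript length and library total. The submitters' processing notes name HISAT2, StringTie, SAMtools and the rat build mRatBN7.2, whereas the rows carry mouse Ensembl identifiers. Coordinates are those of the table, whose build is not given in the sources used here. The study's methods describe dUTP marking of the second strand and the labels a NEBNext Ultra kit, whether counting used strand is not given, and 0 to 2 other rows overlapped each of the 8 genes, with at most 679 counts summed over the 6 libraries against at least 31584 for the gene. FPKM and CPM differed by a factor per library alike for all 8 genes (at most 0.21 on the log2 scale against HFD library 1). The rat promoter sequences supplied for reference were not used.

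The estimated counts were tested with edgeR 4.0.16 (TMM scaling, filterByExpr, glmQLFit and glmQLFTest, group as the only term) in R 4.3.3, with Benjamini-Hochberg adjustment over 18455 genes. Standard errors are the log2 fold change over the square root of F. Ratios were compared by exact two-sided permutation tests. An empty gene was taken to allow 3 fragments, or 12 counts at an assumed 4 counts per fragment, for counting error only. Logs of CPM used a pseudocount of 0.1. The scripts were tested on simulated data. The rule for named genes took the 8, list genes with an unadjusted p under 0.05, 8 others whatever their values (Srebf1, Mlxipl, Nr1h3, Pklr, Slc25a1, Mid1ip1, Scd2, Acss2) and the 5 closest in pattern with a mean of at least 50 counts. Of the genes the rule takes, 2 are not reported here. Others were named after their values were seen. The 8 genes and all lists were chosen with earlier results of these data known. Alternatives were DESeq2 1.42.0, its size factors, upper-quartile scaling, a minimum of 10 counts in every library, no filter, the replicate block, counts divided by 4, limma 3.58.1 on log2(FPKM + 0.1) and log2(FPKM + 1) at a mean FPKM of at least 1, and each library left out.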

Additional observations from a re-analysis of the deposited data

How the results depend on the processing

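Of the 8 genes, 0 had an adjusted p under 0.05 in edgeR's quasi-likelihood test, and 1, Me1, had one with DESeq2, with at least 10 counts in every library and with counts divided by 4. At an unadjusted p under 0.05 there were 2, and 1 with DESeq2 and with limma on either FPKM scale. Leaving out 1 library gave 0 adjusted calls each time and between 1 and 3 at an unadjusted p. Of 118 refitted values of single genes, 6 changed direction, all without HFD library 3: Fasn (1.67), Acaca (0.58), Acacb (0.56), Scd1 (0.012), Elovl6 (0.59) and Thrsp (2.04). At the other end of the fits without 1 library, Fasn was at -2.32, Acaca at -1.38, Acacb at -2.53, Scd1 at -2.52, Elovl6 at -2.34 and Thrsp at -2.47. Limma on log2(FPKM + 0.1), which averages log values, brought the median of the 8 from -1.77 to -0.97, Fasn to -0.17 and Thrsp to -0.04, with Me1 at -1.93. Of the 85 tested list genes, 22 had an unadjusted p under 0.05 in either direction, near the 24.7% of all genes tested. This count stayed within 1.5 times in every alternative, though the count of a single list moved further in 28 of 120. Beside the regulators, DESeq2 called 4 of the 8 insulin signalling genes lower at an adjusted p under 0.05, against 7.55% of the genes it tested. It also called lower 2 of the 14 supply and sugar entry genes and 2 of the 8 triglyceride genes. In the AMPK, desaturase and fasting lists it called 1 each lower, in the clock list 0, and 0 were higher in any of these lists. Over all genes, 2 were called at an adjusted p under 0.05, against 2401 in DESeq2, 162 without a filter, 684 with the stricter filter, 822 with counts divided by 4, 878 and 884 in limma, and 0 to 653 without 1 library. The replicate numbers did not pair the libraries (correlation of deviations -0.09, -0.09 and 0.14 for numbers 1, 2 and 3), and with the replicate block 0 genes of all were called, 2 of the 8, Acacb and Me1, had an unadjusted p under 0.05, 0 had an adjusted p under 0.05, and the list count stayed within 1.5 times.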

Other observations

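Of the genes highest in HFD library 3, 3 more are given here, chosen after the values were seen. Among the 15 genes with the largest excess of this library over every other (mean of at least 50 counts), 6 were lipogenic genes of the 8, and Mcm5 and Mcm4, subunits of the replicative helicase, were also there. The largest excess was that of Gm49378, and D030055H07Rik, Slc4a1, Gm5182, Pklr and Gpam were also among the 15. Mcm5 had 1.69, 3.01 and 15.7 CPM in HFD libraries 1, 2 and 3 and 1.69, 2.04 and 2.75 CPM in the HTG libraries. Mcm4 had 13.6 CPM in HFD library 3 and between 2.70 and 3.52 CPM elsewhere. Uhrf1, which maintains DNA methylation at replication and was not among the 15, had 9.63 CPM in HFD library 3 and at most 2.78 CPM elsewhere.

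The circadian output gene Dbp had 144, 29.4 and 28.3 CPM in HFD libraries 1, 2 and 3 and 5.83, 274 and 116 CPM in HTG libraries 1, 2 and 3, and Nr1d1 had 61.2, 27.1 and 13.7 CPM and 7.98, 155 and 69.3 CPM. Bmal1 (listed as Arntl), which runs opposite to them in the clock, was highest in HTG library 1 at 12.5 CPM and lowest in HTG library 2 at 0.89 CPM. Of the 13 clock genes, 1, Per1, was lower at an unadjusted p under 0.05 (-0.57, edgeR's quasi-likelihood test), against 12.4% of all genes tested, and between 0 and 5 of the 13 had such a p, in either direction, when 1 library was left out. Lipogenic genes cycle over the day in liver, and HTG library 1, with the lowest Dbp, was the lowest HTG library for 6 of the 8 genes. HTG library 2 had the highest Dbp, and HTG library 3 was the highest HTG library for all of the 8 except Me1. In HFD libraries 2 and 3, Dbp was at 29.4 and 28.3 CPM and Nr1d1 at 27.1 and 13.7 CPM. The 8 genes took 0.101% and 2.17% of the counts of these libraries. No time of collection is in the labels, and the part of time of day was not tested.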
